A study of Mus musculus with 20 samples.

Results

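Spliced internal-exon peaks are stretches of messenger RNA enriched for N6-methyladenosine (m6A) that run across at least 1 splice junction. The authors' annotation places each of them in an exon that is neither the first nor the last of its transcript. They were chosen from the authors' deposited tables of peaks as rows annotated to exon X of Y, with X above 1 and below Y, and with 2 or more exonic blocks, and rows with repeated coordinates were kept once. The rule found 1813 of 13450 peaks (13.5%) in double-positive (DP) thymocytes and 783 of 12542 peaks (6.24%) in invariant natural killer T (iNKT) cells, together 2596 of 25992. They lay in 1320 genes in DP cells and 667 genes in iNKT cells. The choice used position and block number and no measured value. The annotation describes the whole genomic span, and the midpoint of that span fell inside a block of the peak itself for 154 DP peaks (8.49%) and 57 iNKT peaks (7.28%). Whether the annotated exon is among the blocks of the peak was not compared.

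The study compared thymocytes of Mettl3 fl/fl mice carrying a Cre recombinase under Cd4 control, in which Mettl3 is deleted, with wild-type thymocytes, all from C57BL/6 mice aged 6 to 8 weeks. DP cells were sorted as 7AAD- CD1d-tetramer- CD4+ CD8+ and gave 8 libraries, with 2 replicates for each genotype of m6A immunoprecipitate and of input. The iNKT cells were sorted as 7AAD- CD1d-tetramer+ TCRβ+ and gave 12 libraries, with 3 replicates for each genotype of m6A immunoprecipitate and of input. The protocols name both m6A-seq and a low-input version and do not tie either to a cell type, so that protocol and cell type cannot be told apart. Polyadenylated RNA was broken into fragments of about 150 nt before immunoprecipitation. The Cre line acts in all cells that have passed through Cd4 expression, so both sorted populations are taken to carry the deletion. How complete the loss was in each was not measured here. Neither population shows cells that lost Mettl3 only as iNKT cells. The deposited tables hold 1 value per peak for each comparison and none per library, so the spread between replicates and the depth are unknown.

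METTL3 is the catalytic subunit of the nuclear complex that methylates adenosine in pre-mRNA, mostly in sequences with GAC or AAC at their core. The exon junction complex, which is left upstream of each junction after splicing, keeps the writer from nearby sequence, and m6A is known to gather in long internal exons and in last exons around stop codons. Short internal exons flanked by junctions are thus a part of the transcript where m6A is usually sparse. DP thymocytes rearrange the T cell receptor alpha chain, and iNKT cells, which recognise lipids on CD1d, descend from them.

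To show what such a stretch looks like, 4 whole middle blocks were read from RefSeq windows around gene starts (assembly GRCm38.p6), which overlapped these blocks because another gene start, or another start of the same gene, lies there. Each is bounded by a junction on both sides and is given 5′ to 3′ on the strand of the peak. A narrow form of the methylation motif, GGAC followed by A, C or T, is in capitals. The Zap70 block, from a kinase of T cell receptor signalling, is at chr1:36778751-36778802 on the plus strand and is the shortest, at 52 nt. The Palm block at chr10:79807034-79807114 (plus strand, 81 nt) comes from a gene for a membrane-associated phosphoprotein, the Cep350 block at chr1:155885907-155886106 (minus strand, 200 nt) from a centrosomal gene, and the Srgap2 block at chr1:131356690-131356905 (minus strand, 216 nt) from a gene for a GTPase-activating protein.
Zap70: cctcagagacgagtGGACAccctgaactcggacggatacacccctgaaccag
Palm: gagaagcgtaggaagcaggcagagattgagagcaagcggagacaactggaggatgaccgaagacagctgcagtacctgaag
Cep350: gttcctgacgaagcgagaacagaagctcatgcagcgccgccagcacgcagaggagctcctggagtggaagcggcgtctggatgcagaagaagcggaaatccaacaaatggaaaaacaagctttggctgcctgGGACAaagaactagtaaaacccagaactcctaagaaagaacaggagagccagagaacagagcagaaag
Srgap2: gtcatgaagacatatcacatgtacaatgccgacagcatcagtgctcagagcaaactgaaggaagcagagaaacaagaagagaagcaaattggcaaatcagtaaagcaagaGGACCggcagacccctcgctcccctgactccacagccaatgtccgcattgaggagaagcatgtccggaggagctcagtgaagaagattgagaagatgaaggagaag
The Zap70, Cep350 and Srgap2 blocks each held this GGAC motif 1 time on their own strand, and the Palm block held none. Sequences with GAC or AAC outside this motif, which occur in the Palm block too, were not marked or counted. The 3 forms of the motif cannot overlap, and 14.6% of 32851 RefSeq windows cut to the length of the Zap70 block held at least 1 on the same strand (27.1% on either strand), 22.1% at the length of the Palm block (39.4%), 45.7% at that of the Cep350 block (70.8%) and 48.2% at that of the Srgap2 block (73.4%). The sequences are a description, and no genome was at hand to read the other blocks. The peaks around these blocks had fold enrichments per the authors' deposited tables of 1.73 (Zap70, iNKT), 2.26 (Palm, DP), 2.64 (Cep350, DP) and 2.51 (Srgap2, DP), and none of the 4 passed the test between genotypes.

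DP peaks were built from more blocks than iNKT peaks. Of the DP peaks, 929 (51.2%) had 2 blocks and 884 (48.8%) had 3 or more, with a maximum of 20 in Cenpe, a mitotic kinesin gene. Of the iNKT peaks, 596 (76.1%) had 2 blocks and 187 (23.9%) had 3 or more, with a maximum of 6. The median exonic length was 299 nt for DP peaks and 181 nt for iNKT peaks, and the longest block of a peak had a median of 161 nt for DP and 129 nt for iNKT peaks. Middle blocks, which are whole exons if the annotation of the junctions holds, had medians of 113 nt (n = 1766) in DP cells and 102 nt (n = 230) in iNKT cells. A block under 20 nt was part of 482 DP peaks (26.6%) and 202 iNKT peaks (25.8%). Long blocks were the exception: 216 DP peaks (11.9%) and 37 iNKT peaks (4.73%) had a block of 400 nt or more. The DP peaks crossed 3558 distinct junctions and the iNKT peaks 1004. The annotated exon lay at a median of 52.6% of the exon number for DP peaks and 56.3% for iNKT peaks. This is near the middle by exon number, and position along the transcript length was not measured.

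Enrichment of immunoprecipitate over input was modest in these peaks and larger where a block, or the peak as a whole, was long. The median fold enrichment per the authors' deposited table was 3.18 (quartiles 2.25 and 5.45) for spliced internal-exon peaks in DP cells, against 5.0 for all other DP peaks and 4.32 for internal-exon peaks in 1 block. In iNKT cells the median per the authors' deposited table was 5.62 (quartiles 3.09 and 13.2), against 8.58 for all other iNKT peaks and 5.88 for internal-exon peaks in 1 block. Across DP peaks it increased with the longest block, from a median of 2.36 under 100 nt to 3.04 at 150 to 199 nt and 7.27 at 400 nt or more. Across iNKT peaks the same medians were 3.22, 7.24 and 27.3. The Spearman correlation between the longest block and fold enrichment was 0.45 in DP cells (n = 1813) and 0.46 in iNKT cells (n = 783), given as a description across peaks that share libraries. With the total exonic length of the peak it was 0.48 in DP cells and 0.5 in iNKT cells. Block length and peak length were not separated by any test. In internal-exon peaks of 1 block the correlation with the longest block was 0.39 (n = 1901) in DP cells and 0.56 (n = 1570) in iNKT cells. The relation was thus also present in peaks that cross no junction. The highest fold enrichments per the authors' deposited table for DP cells were 60.9 in Wdr66, whose blocks measured 564 and 7 nt, 39.0 in Zranb1 (729 and 19 nt), which encodes a deubiquitinase, and 38.1 in Cenpf (2183 and 1863 nt), which encodes a mitotic kinetochore protein. Next per the authors' deposited table came Upf3b (35.6, longest block 183 nt), a gene of nonsense-mediated decay, and Ccdc191 (33.6, longest block 102 nt), so high values also occurred without a long block. For iNKT cells the authors' deposited table gave 379 in E130309D02Rik (439 and 11 nt), 332 in Pole (130 and 201 nt), which encodes the catalytic subunit of DNA polymerase epsilon, and 232 in Marchf6 (68 and 75 nt), a ubiquitin ligase gene.

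**Figure D1:**
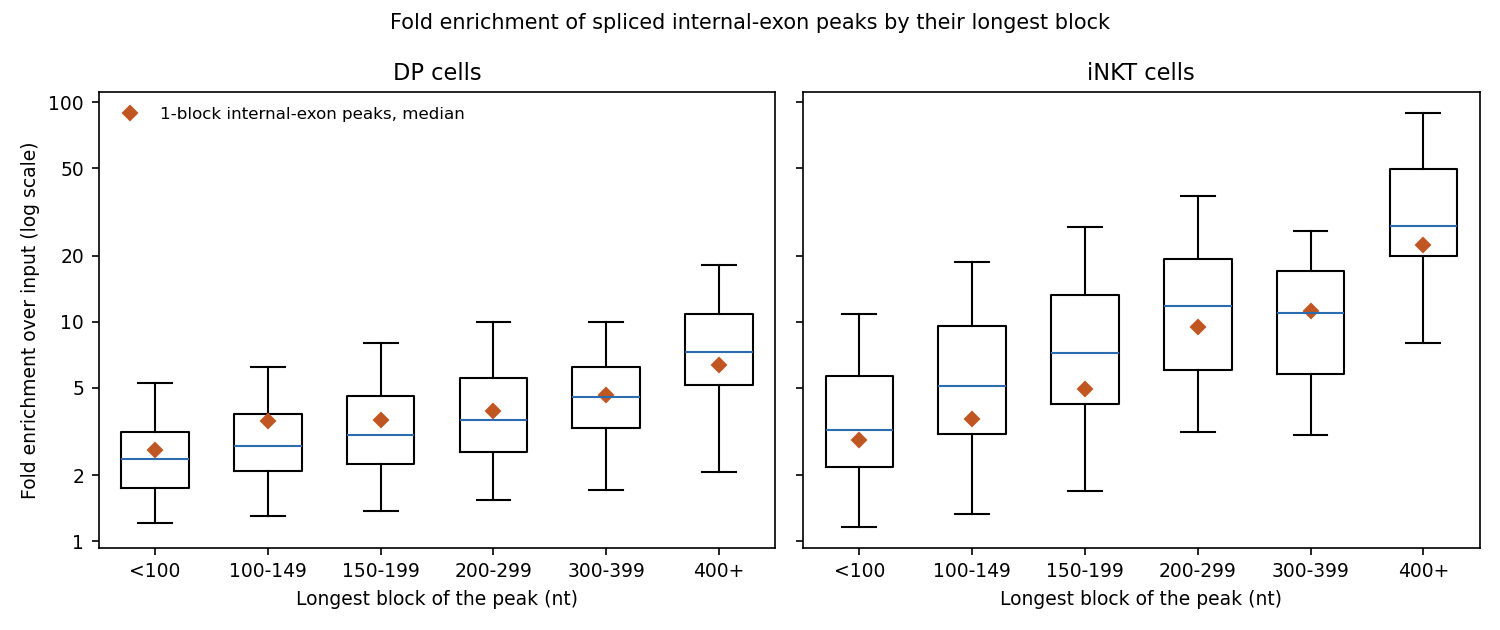
Fold enrichment over input (log scale) of spliced internal-exon peaks, by the longest block of the peak in nt, in DP cells (left) and iNKT cells (right). Boxes give the quartiles and median, whiskers reach the last peak within 1.5 box heights, outliers are not drawn, and diamonds are the medians of internal-exon peaks in 1 block; the box medians run from 2.36 to 7.27 in DP cells and from 3.22 to 27.3 in iNKT cells.

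The first comparison asked how Mettl3-deleted DP thymocytes differed from wild-type ones in these peaks. The files do not say which sign of the log2 fold change stands for which genotype. Negative values are read here as probably lower in Mettl3-deleted cells (likely, not known), because the authors' deposited gene lists hold 4336 of 4337 DP genes with a negative peak, 5339 of 5343 such iNKT genes and no gene without a negative peak, and because the deletion removes a writer. Lower and higher have this likely meaning throughout. At a false discovery rate (FDR) of 0.05 per the authors' deposited table, 47 of 1813 DP peaks (2.59%, Wilson 95% interval 1.96% to 3.43%) were lower and 5 (0.276%) were higher. Over all 13450 DP peaks, 0.743% were lower and 0.483% were higher. Most lower calls lay in weakly enriched peaks, and only there did they outnumber higher ones. Their share was above that of other DP peaks on both sides of a fold enrichment of 4. Of the 1143 spliced internal-exon peaks with a fold enrichment under 4, 43 were lower (3.76%) and 1 was higher, against 42 and 24 of 4548 other DP peaks (0.923% and 0.528%). Of the 670 with a fold enrichment of at least 4, 4 were lower and 4 were higher (0.597% each), against 11 and 36 of 7089 other DP peaks (0.155% and 0.508%). Spliced internal-exon peaks were 13.5% of DP peaks and made up 47.0% of the lower ones that passed and 7.69% of the higher ones. Peaks of a table come from the same libraries, so shares are set side by side here without a test of their difference. The Wilson intervals of both cell types count peaks as if independent and do not measure the spread between mice.

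The changes in DP cells were small. The 47 lower peaks had a median log2 fold change of -0.52 (lowest -1.26, highest -0.20) per the authors' deposited table, and 5 of them reached 2-fold. Over all 1813 peaks the median log2 fold change was -0.12 (quartiles -0.40 and 0.17), and 60.5% were negative, against a median of 0.01 and 48.1% negative over all other DP peaks. In internal-exon peaks of 1 block, 7 of 1901 were lower (0.368%) and 1 was higher, with a median of 0.01. Among peaks annotated to the 3′ untranslated region (UTR), 23 of 1308 spliced peaks were lower (1.76%) and 8 were higher, while 5 of 4811 peaks in 1 block were lower (0.104%) and 30 were higher. Lower calls thus went with spliced peaks in both positions. Among spliced internal-exon peaks the lower share was 1.18% with 2 blocks, 2.19% with 3, 6.16% with 4 and 6.02% with 5 or more. In spliced DP peaks of other annotation it was 0.489%, 2.12%, 5.08% and 3.85% at the same block numbers. Peaks with more blocks also had stronger peak p-values, and within the strongest 25% of all DP peaks by that p-value 5.53% of spliced internal-exon peaks were lower, against 1.52% of all other peaks. Peak strength and block number were not separated by any test.

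**Figure D2:**
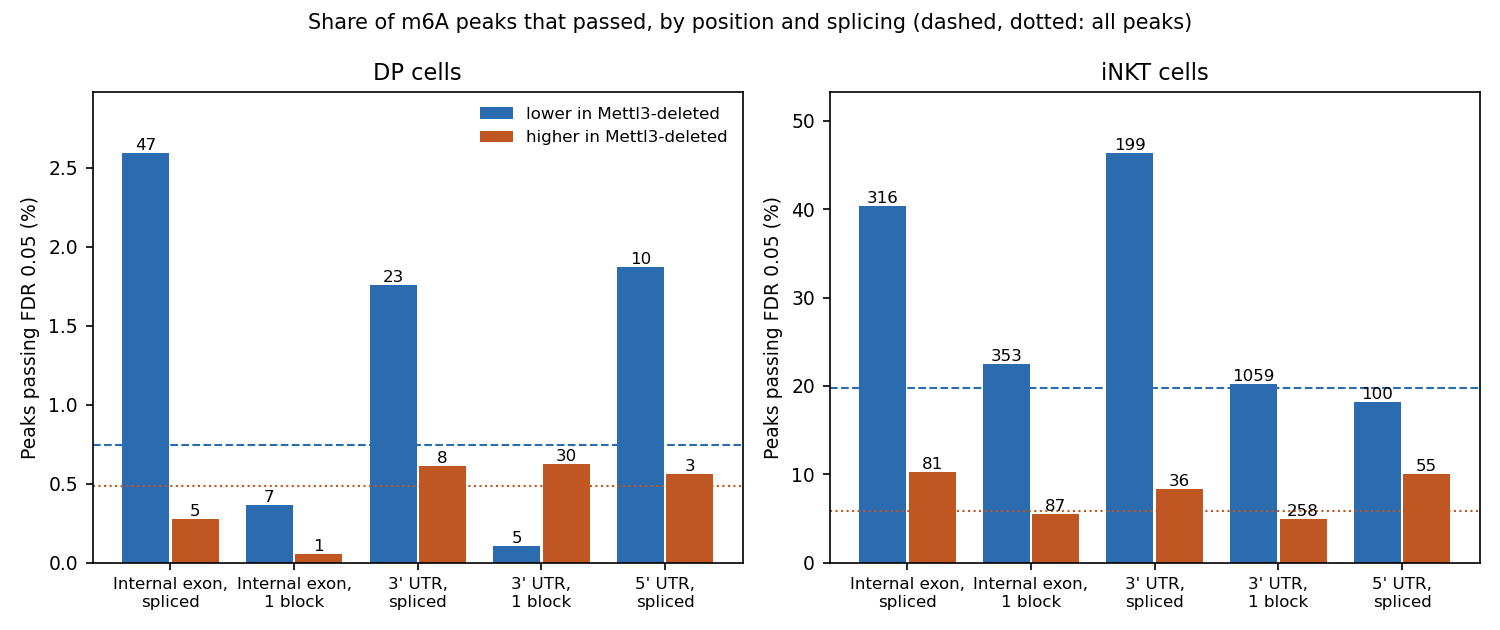
Percent of peaks that passed an FDR of 0.05, lower (blue) and higher (orange) in Mettl3-deleted cells, by position and splicing of the peak, in DP cells (left) and iNKT cells (right), with the number of peaks above each bar and the share over all peaks as a dashed (lower) or dotted (higher) line. Spliced internal-exon peaks had lower shares of 2.59% in DP cells and 40.4% in iNKT cells, against 0.743% and 19.8% over all peaks; the vertical axes differ.

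The lower DP peaks with the smallest FDR lay in genes of different roles. Myh9, which encodes the heavy chain of non-muscle myosin IIA, held 3 adjacent peaks that together covered 18 blocks and 2942 exonic bases, and all 3 were lower, with log2 fold changes between -0.52 and -0.24. The first of them (chromosome 15, 77763850 to 77765503, mm10, 4 blocks of 176, 89, 124 and 151 nt from the 5′ end, annotated to exon 36 of 41) had a log2 fold change of -0.522 and a fold enrichment of 2.58 per the authors' deposited table (FDR 2.2e-10). The 8-block and 6-block Myh9 peaks had log2 fold changes of -0.244 (FDR 3.8e-08) and -0.249 (FDR 6.8e-07) per the authors' deposited table. Def6, which encodes a guanine nucleotide exchange factor of T cells and is named Ppard in the authors' column, had -0.286 over 4 blocks (FDR 5.5e-07) per the authors' deposited table. Hsp90ab1, a cytosolic chaperone gene, had -0.264 over blocks of 396 and 114 nt (FDR 1.4e-06) per the authors' deposited table. Dhx16, which encodes a helicase of pre-mRNA splicing, had a log2 fold change of -0.613, and Arhgap45, which encodes a GTPase-activating protein, had -0.272 per the authors' deposited table. These 7 peaks had fold enrichments of 1.44 to 2.58 over input, low within the DP set.

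The lower DP peaks with the largest log2 fold changes had FDRs closer to the threshold. In the authors' deposited table Tlk2, a kinase gene of chromatin assembly, had -1.26 over blocks of 55, 72 and 54 nt (FDR 0.032). Lrrfip1 had -1.20, Crebbp, a histone acetyltransferase gene, -1.09, Dnaja1, which encodes a partner of Hsp70, -1.06, and Macf1, a linker of actin and microtubules, -1.0 per the authors' deposited table. Mxi1, a Max-binding repressor, had -0.946, the receptor phosphatase gene Ptpra -0.892 and the actin scaffold gene Iqgap1 -0.872 per the authors' deposited table. The Macf1 peak was the last inside the threshold (FDR 0.049), and the next outside it was a peak in Aff4, a gene of transcription elongation, with 0.94 (FDR 0.056) per the authors' deposited table.

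The 5 higher DP peaks differed from the lower ones in enrichment. Their median fold enrichment was 4.72, against 2.33 for the 47 lower peaks and 3.23 for the 1761 that did not pass. Arid1a, which encodes a subunit of the BAF chromatin remodeller, had a log2 fold change of 0.546 over blocks of 51 and 429 nt (FDR 0.0017) per the authors' deposited table. Usp42, a deubiquitinase gene, had 1.10 in a peak that lay almost wholly in a single block of 1491 nt (FDR 0.019, fold enrichment 11.8) per the authors' deposited table. Mical3, which encodes a monooxygenase that acts on actin, had 1.56, the ubiquitin ligase gene Huwe1 0.652 and Ncl, which encodes nucleolin and is named Snord82 in the authors' column, 0.165 per the authors' deposited table.

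**Figure D3:**
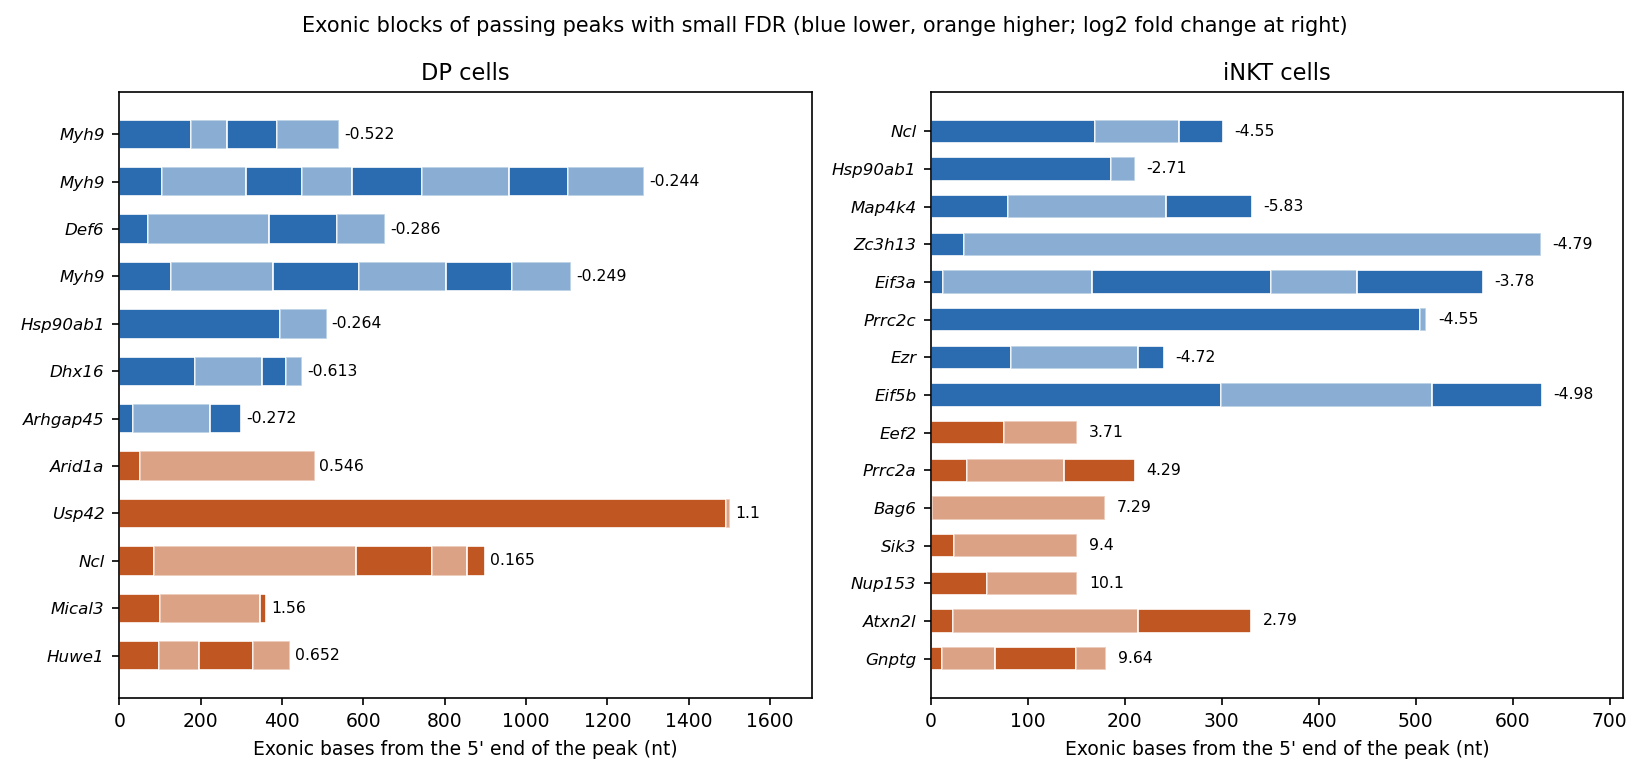
Exonic blocks, to scale in nt from the 5′ end, of spliced internal-exon peaks from among those with the smallest FDR in DP cells (left) and iNKT cells (right), lower in blue and higher in orange, with alternating shades for successive blocks and the log2 fold change at the right. Myh9 is drawn for 3 separate peaks of 4, 8 and 6 blocks, and the Usp42 peak is 1 block of 1491 nt with 10 nt across a junction.

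The second comparison asked the same of iNKT cells, where changes were larger and more frequent. At an FDR of 0.05 per the authors' deposited table, 316 of 783 peaks (40.4%, Wilson 95% interval 37.0% to 43.8%) were lower, in 281 genes, and 81 (10.3%) were higher, in 78 genes. Over all 12542 iNKT peaks, 19.8% were lower and 5.84% were higher. Spliced internal-exon peaks were 6.24% of iNKT peaks and 12.7% of the lower and 11.1% of the higher ones that passed, so both directions were more frequent than over the whole table. The median log2 fold change was -1.72 (quartiles -3.38 and 0.20), with 72.7% negative, against -0.93 and 68.3% over all other iNKT peaks. The 316 lower peaks had a median of -3.79 and 311 reached 2-fold, and the 81 higher peaks had a median of 5.98 and all reached 2-fold per the authors' deposited table.

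Spliced and 1-block peaks also differed in iNKT cells. In internal-exon peaks of 1 block 22.5% of 1570 were lower and 5.54% were higher, with a median of -1.04. Of spliced 3′ UTR peaks 46.3% of 430 were lower, against 20.2% of 5243 in 1 block. Of spliced 5′ UTR peaks 18.2% of 549 were lower. The lower share of spliced internal-exon peaks was 32.9% with 2 blocks, 60.6% with 3, 82.6% with 4 and 77.8% of 9 peaks with 5 or more. In spliced iNKT peaks of other annotation it was 26.0%, 40.4%, 60.0% and, of 3 peaks, 100% at the same block numbers. By longest block, 15.9% of spliced internal-exon peaks were lower under 100 nt and 70.3% at 400 nt or more. The higher share ran the other way, 15.0% and 2.70%. Internal-exon peaks in 1 block had the same trend, with 4.76% and 67.4% lower and 7.3% and 1.55% higher. The trend was thus not particular to spliced peaks. Spliced internal-exon peaks differed in peak strength by call as well: the median log10 peak p-value was -324 in lower peaks, -14.2 in higher peaks and -15.1 in peaks that did not pass. Within the strongest 25% of all iNKT peaks by peak p-value, 80.7% of 306 spliced internal-exon peaks were lower, against 60.8% of 2830 other peaks. Within the next 25% the shares were 30.4% of 204 and 13.1% of 2932. Higher calls lay mainly in weaker peaks, at 18.5% of 162 spliced internal-exon peaks in the 25% after that and 15.3% of 111 in the weakest 25%, against 7.20% and 4.66% of all other peaks.

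**Figure D4:**
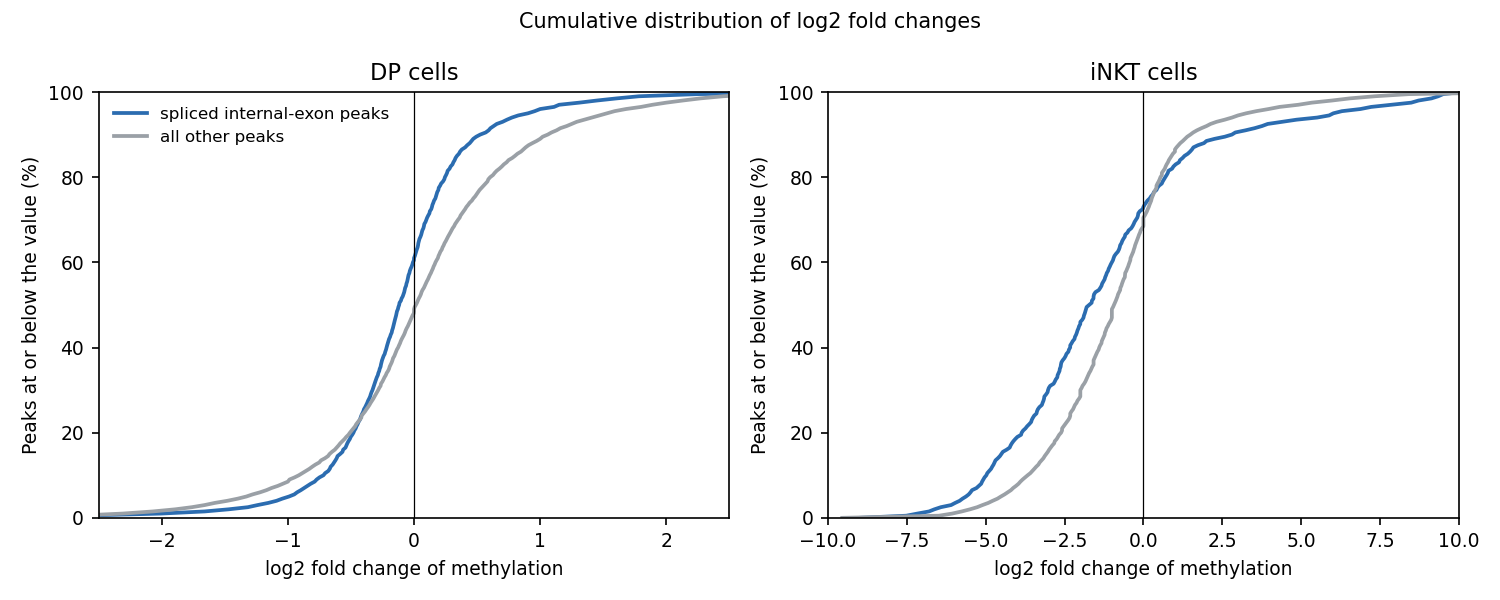
Cumulative percent of peaks at or below each log2 fold change for spliced internal-exon peaks (blue) and all other peaks (grey) in DP cells (left) and iNKT cells (right); the horizontal axes differ in range. The curve of the spliced internal-exon peaks crosses 0 at 60.5% in DP cells and 72.7% in iNKT cells, against 48.1% and 68.3% for all other peaks.

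The 8 lower iNKT peaks with the smallest FDR lay in genes of different roles. Ncl had a log2 fold change of -4.55 over blocks of 169, 87 and 45 nt (chromosome 1, 86356149 to 86356724, mm10; log10 FDR -434), and Hsp90ab1 had -2.71 (log10 FDR -320), per the authors' deposited table. Map4k4, a kinase gene, had -5.83 over 3 blocks with a fold enrichment of 38.6 per the authors' deposited table. Zc3h13, which encodes an adaptor of the m6A writer complex, had -4.79 in a peak with a block of 595 nt and a fold enrichment of 64.8 per the authors' deposited table (FDR 1e-285). Eif3a, which encodes the largest subunit of initiation factor eIF3, had -3.78 over 5 blocks, and Eif5b, which encodes the factor for ribosomal subunit joining, had -4.98 over 3 blocks per the authors' deposited table. Prrc2c had -4.55 and Ezr, whose product ezrin ties the membrane to actin, -4.72 per the authors' deposited table.

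The largest log2 fold change among lower iNKT peaks was -9.00 in Zc3h18, a gene of nuclear RNA processing, in a 3-block peak at exon 8 of 19 per the authors' deposited table. Another 3-block Zc3h18 peak, at exon 2 of 19, had -7.89 per the authors' deposited table. Hsp90aa1, the inducible relative of Hsp90ab1, had -8.84, the remodeller gene Chd1l -8.36, R3hcc1 -7.48, the lipid kinase gene Pip4k2b -7.37, Atad2, which encodes a bromodomain ATPase, -7.26, and Chaf1a, which encodes a subunit of chromatin assembly factor 1, -7.20 per the authors' deposited table. The Chaf1a peak had 6 blocks, the most in iNKT cells together with a lower peak in Ap3d1 (-2.82), an adaptor gene of vesicle transport, per the authors' deposited table. The last lower peak inside the threshold was in Myo6, an unconventional myosin gene (-4.76, FDR 0.049), and the next outside it was in Srcap, a remodeller gene (-2.17, FDR 0.05 when rounded), per the authors' deposited table. Myh9 held 6 iNKT peaks, of which 4 were lower with log2 fold changes between -2.23 and -1.57 and 2 did not pass, with -0.173 and 0.333 per the authors' deposited table.

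The 81 higher iNKT peaks had a median fold enrichment of 4.18 and a median exonic length of 180 nt. The same medians were 6.41 and 241 nt for the 316 lower peaks and 5.54 and 179 nt for the 386 that did not pass, so in length the higher peaks were close to those that did not pass. Of the higher peaks, 50 of the 81 had a log2 fold change of 5 or more per the authors' deposited table. Eef2, which encodes the translocation factor of the ribosome and is named Snord37 in the authors' column, had 3.71 over blocks of 75 and 76 nt with a fold enrichment of 1.69 per the authors' deposited table. Prrc2a had 4.29, the chaperone gene Bag6 7.29 and the kinase gene Sik3 9.40 per the authors' deposited table. Nup153, which encodes a protein of the nuclear pore basket, had the largest, at 10.1 (fold enrichment 4.59), followed by Card10 at 9.98, Ppp1r21 at 9.81 and Gnptg at 9.64 per the authors' deposited table. Dhx29, a helicase gene of translation initiation that is named Ccno in the authors' column, had 9.49, and Pacs2, a sorting gene, and Slain1, a microtubule gene, each had 9.40 per the authors' deposited table. The peaks from Nup153 to Slain1 had log10 peak p-values between -62.4 (Pacs2) and -7.42 (Ppp1r21), against a median of -324 in lower peaks. Read counts are not known, so how far changes of this size rest on few reads in a genotype was not tested. Of the 90 iNKT genes with 2 or more spliced internal-exon peaks, 6 had both a lower and a higher one. These were looked up after their values were seen. Zfr, an RNA-binding gene, had -6.91 and 8.64, in peaks with log10 peak p-values of -791 and -9.4, per the authors' deposited table. Kmt2a, Ppp1r12a, Prrc2a and Tnrc18 were among the others. Over all 783 peaks 40.4% were lower and 10.3% were higher, so the count of 6 is no result about transcripts.

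Genes of chromatin regulation were the best represented of the 14 lists. Counts by list cover the listed genes only, and a list can leave out other genes of its kind. The 70 listed chromatin genes do not include Tlk2, lower in DP cells, or Chd1l, Atad2 and Chaf1a, lower in iNKT cells. In iNKT cells 37 of 62 peaks in listed chromatin genes were lower (59.7%) and 7 were higher. Their median log2 fold change was -2.62, against 40.4% lower and a median of -1.72 over all spliced internal-exon peaks there. The lower ones lay in 27 genes, among them the demethylase gene Kdm5a (-6.56), the methyltransferase gene Nsd3 (-7.14) and Ncor1 (-5.15) per the authors' deposited table. In DP cells 3 of 101 peaks in listed chromatin genes were lower and 1 was higher, in Arid1a. The lower ones were in Baz1b (-0.729), Crebbp (-1.09) and the ATPase gene Smarca4 (-0.205) per the authors' deposited table. The share in DP cells, 2.97%, was near the 2.59% of all spliced internal-exon peaks there.

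Genes that write, read or erase m6A had 4 peaks in iNKT cells, where 40.4% of all spliced internal-exon peaks were lower, and all 4 were lower: 2 in Zc3h13 (-4.79 and -4.24), 1 in Virma, another subunit of the writer complex (-4.34), and 1 in Hnrnpa2b1, an RNA-binding gene (-1.89), per the authors' deposited table. None of the 11 peaks in such genes passed in DP cells, where the share over all spliced internal-exon peaks was 2.59%, so a count of 0 is near the background. Splicing and RNA-binding genes had 7 of 10 peaks lower in iNKT cells, with Srsf11 (-5.96) and Acin1 (-5.0) at the smallest FDRs per the authors' deposited table. In DP cells they had 6 of 29 peaks lower (20.7%, against 2.59% of all 1813), in Acin1, Hnrnpu, Prpf4b and Sf3b2, with log2 fold changes of -0.428 and -0.381 in Hnrnpu and -0.447 in Prpf4b per the authors' deposited table. The 38 listed genes of RNA helicases and decay had 6 of 9 peaks lower in iNKT cells. Among these were Ddx46 (-4.44) and Upf2 of nonsense-mediated decay (-6.67 and -3.17) per the authors' deposited table. In DP cells 0 of 21 peaks in the listed genes were lower. The list does not hold the helicase genes Dhx16, lower in DP cells, and Dhx29, higher in iNKT cells.

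Against the same shares of 40.4% lower in iNKT cells and 2.59% lower in DP cells, translation genes had 5 of 8 iNKT peaks lower and 1 higher, the Eef2 peak, and 0 of 12 DP peaks passed. Chaperone genes had 4 of 5 iNKT peaks lower and 1 higher, the Bag6 peak, and 2 of 16 DP peaks lower, in Hsp90ab1 and Dnaja1. Genes of the cytoskeleton and motors had 11 of 19 iNKT peaks lower, among them Msn (-2.54), which encodes the ezrin relative moesin, and the kinesin gene Kif21b (-3.06) per the authors' deposited table, and 1 higher, in Wipf1. In DP cells 5 of 36 such peaks were lower, of which 3 were the adjacent Myh9 peaks and the others lay in Iqgap1 and Macf1. Genes of replication and repair had 3 of 7 iNKT peaks lower, in Top1 (-2.29), Mcm3ap (-3.98) and Blm (-5.26), and 1 of 30 DP peaks lower, in the cohesin loader gene Nipbl (-0.32), per the authors' deposited tables. The counts of 0 of 12 and 1 of 30 in DP cells and 3 of 7 in iNKT cells were near those shares.

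Of the genes with any peak, 19.7% of 6713 in DP cells and 9.71% of 6866 in iNKT cells held a spliced internal-exon peak. The share was 7 of 38 (18.4%) in DP cells and 3 of 43 (6.98%) in iNKT cells for thymocyte transcription factor genes. It was 9 of 35 (25.7%) in DP cells and 6 of 35 (17.1%) in iNKT cells for T cell receptor signalling genes. The counts of passing peaks in these lists are set beside 2.59% lower and 0.276% higher among all such DP peaks and 40.4% lower and 10.3% higher among all such iNKT peaks. The 49 thymocyte transcription factor genes held 7 peaks in DP cells, of which 0 passed, and 4 in iNKT cells, of which 1 was lower, in Hivep3 (-1.85), per the authors' deposited table. Genes of T cell receptor signalling had 2 of 13 DP peaks lower, among them that of the calcium channel gene Itpr2 (-0.607), per the authors' deposited table. In iNKT cells 2 of 7 were lower, in Itpr3 (-2.60) and the adaptor gene Lat (-1.12), and 1 was higher, in the adaptor gene Lcp2 (1.93), per the authors' deposited table. The listed ubiquitin genes had no lower and 2 higher peaks of 37 in DP cells, in Usp42 and Huwe1. In iNKT cells they had 4 lower and 1 higher of 14. Cytokine and JAK-STAT genes had 3 DP peaks and 2 iNKT peaks, of which 0 passed. Genes of PI3K, mTOR and metabolism had 3 peaks in DP cells, with 0 passing, and 5 in iNKT cells with 1 lower, in Pik3r5 (-2.49) per the authors' deposited table. The median log2 fold changes of these lists over all their iNKT peaks were -4.29 for m6A genes, -4.1 for chaperones, -3.2 for translation, -3.07 for replication and repair, -2.75 for splicing, -1.88 for RNA helicases and decay and -1.81 for the cytoskeleton, against -1.72 over all 783 peaks. The transcription factor list had -2.06. The medians of the ubiquitin list (-0.77), the cytokine list (-0.45), the PI3K list (0.58) and the T cell receptor list (0.99) were above it. In DP cells the list medians lay between -0.33, for chaperones, and 0.19, for cytokine genes, against -0.12 over all 1813 peaks. The lists were chosen with results of these tables known, and the counts support nothing by themselves.

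Peaks were also looked up in genes that mark the sorted cells. Among 10 DP marker genes, 7 had any DP peak and 5 any iNKT peak, and the only spliced internal-exon peak was that of Arpp21 in DP cells. Among 10 iNKT marker genes, 7 had any peak in iNKT cells, including Zbtb16, the transcription factor gene of the lineage, and 4 in DP cells, without Zbtb16. Of 22 marker genes of other cells, 3 had any peak in DP cells and 4 in iNKT cells. Spliced internal-exon peaks among these were 0 in DP cells and 1 in iNKT cells, which did not pass. A peak does not measure the level of a transcript, and the part of other cells in the results was not tested.

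Between the cell types, 257 DP peaks (14.2% of the DP set) shared at least 1 exonic base on the same strand with 265 iNKT peaks (33.8% of the iNKT set). Genes with such a peak in both cell types numbered 316, which is 23.9% of the DP genes and 47.4% of the iNKT genes. In 257 pairs of a DP peak and its best iNKT partner, the median log2 fold change was -0.05 on the DP side and -2.82 on the iNKT side, and 129 pairs were negative in both, 101 were negative in iNKT cells and positive in DP cells, 15 the other way and 12 positive in both. The Spearman correlation between the fold changes was 0.02 and between the fold enrichments 0.31 (n = 257 pairs, a description). The tables were called separately with different replicate numbers, and the difference between cell types was not tested.

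**Figure D5:**
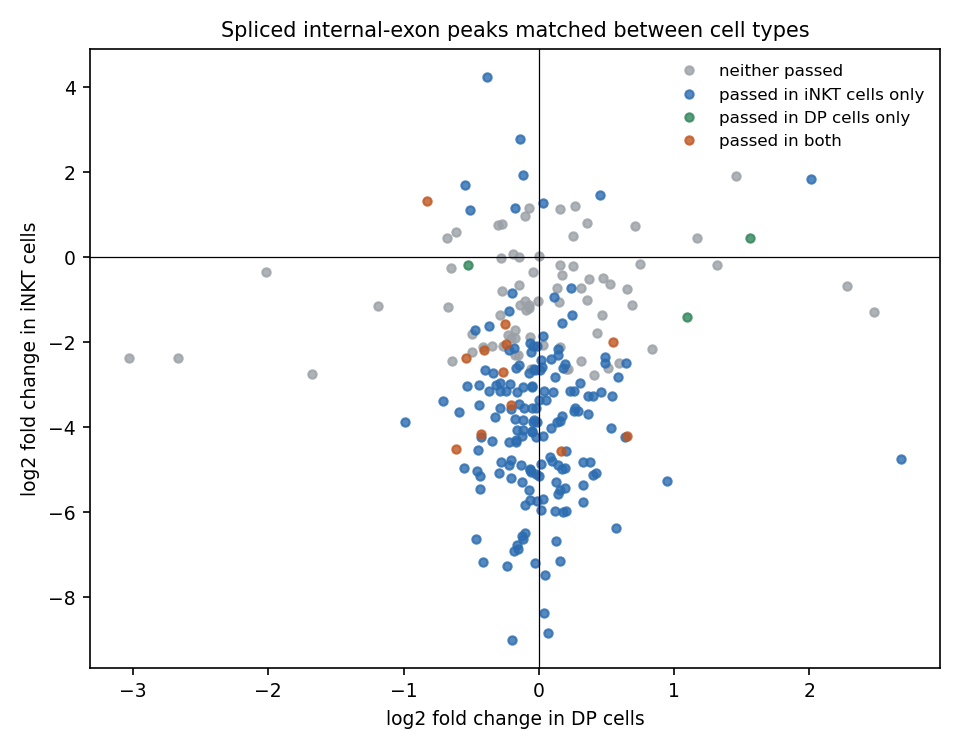
Log2 fold change in iNKT cells (vertical) against that in DP cells (horizontal) for 257 spliced internal-exon peaks matched between the cell types, coloured by where the peak passed an FDR of 0.05. Most points lie below 0 on the vertical axis and on both sides of 0 on the horizontal axis, and 12 pairs passed in both cell types.

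Of the 257 pairs, 15 (5.84%) passed in DP cells and 179 (69.6%) in iNKT cells. Among all spliced internal-exon peaks 2.59% were lower and 0.276% higher in DP cells, and 40.4% and 10.3% in iNKT cells. In 12 pairs both peaks passed, and in 8 of these both were lower. With so many iNKT peaks passing, the count of 12 is no result about a shared set. They lay in Akap13, Clta, Dhx16, Hsp90ab1, Smarca4, Spen and, with 2 pairs, Myh9. The Myh9 pairs had log2 fold changes of -0.249 and -0.244 in DP cells and -1.57 and -2.04 in iNKT cells per the authors' deposited tables. Clta, which encodes clathrin light chain A, had -0.429 in DP cells and -4.17 in iNKT cells. Spen, a corepressor gene, had -0.405 in DP cells and -2.19 in iNKT cells per the authors' deposited tables. In 3 pairs the DP peak was higher and the iNKT peak lower: Arid1a (0.546 in DP cells and -2.00 in iNKT cells), Huwe1 (0.652 and -4.20) and Ncl (0.165 and -4.55) per the authors' deposited tables. Ppp1r12a, which encodes a targeting subunit of myosin phosphatase, had the opposite pattern, with -0.83 in DP cells and 1.31 in iNKT cells per the authors' deposited tables. The matched Ppp1r12a, Arid1a and Akap13 peaks shared 121, 390 and 31 exonic bases and no junction, so they cover different parts of the transcript in part.

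How often an iNKT peak lay over a DP peak differed between lower, higher and not passing peaks. Of the 316 lower iNKT peaks, 277 (87.7%) overlapped a DP peak of any kind, of the 386 that did not pass 128 (33.2%) did, and of the 81 higher ones 14 (17.3%) did. The share was 53.5% (419) over all 783 and 42.7% (5360) over all 12542 iNKT peaks. The lower, not passing and higher peaks also differed in peak strength, with median log10 peak p-values of -324, -15.1 and -14.2. Their median exonic lengths were 241, 179 and 180 nt. Overlap was not compared at equal strength or length, so a part of direction in it was not tested. The DP peaks under lower iNKT peaks were lower in 12 of 277 cases (4.33%) and higher in 4. Those under iNKT peaks that did not pass were lower in 3 of 128, and those under higher iNKT peaks in 1 of 14. Over all DP peaks 0.743% were lower and 0.483% were higher. Over spliced internal-exon DP peaks alone these shares were 2.59% and 0.276%. Of the 316 lower iNKT peaks, 175 shared bases with a spliced internal-exon DP peak. The 3′ UTR peaks of the same genes were examined as well. In iNKT cells 42 of 93 genes (45.2%) with a lower spliced internal-exon peak and a 3′ UTR peak also had a lower 3′ UTR peak, against 32 of 82 genes (39.0%) whose spliced internal-exon peaks did not pass, 11 of 27 genes (40.7%) with a higher one and 940 of 3498 genes (26.9%) over the whole table. In DP cells the 19 genes with a lower spliced internal-exon peak and a 3′ UTR peak had 0 lower 3′ UTR peaks, against 25 of 3829 genes (0.653%) over the whole table.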

How the data were processed

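Input and m6A libraries of sorted mouse thymocytes (20 libraries, 8 groups) were compared by the authors between genotypes. The submitters' processing notes name mm10 and HOMER 4.9.1, RSEM 1.3.0, STAR 2.6.0a, Trim Galore 0.6.5 and FastQC 0.11.5. The authors titled their deposited peaks with the name of the peak caller exomePeak. Its version, and whether replicates were pooled, is not given in the sources used here. Columns are named as exomePeak names them. Per the file headers, the authors' deposited tables hold for each peak a p-value, a fold enrichment over input as a linear ratio, a log2 fold change between genotypes, and log10 p-values and FDRs, which are treated as scores. The peaks are spliced intervals with block lengths.

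Peaks passed at an FDR of 0.05, computed by the authors over each whole table, and were counted by sign. The tables hold no value per library, so no test of differences was run, depth is unknown, and how far the p-values take in variation between mice is unknown. Shares have Wilson 95% intervals, medians binomial rank intervals. Both treat peaks as independent, although peaks share libraries and genes, and do not measure variation between mice. Peaks that shared 1 or more exonic bases of the same strand were matched. Genes were named through the Entrez identifier of the annotated transcript in RefSeq (GRCm38.p6). The peak lay on the strand of that gene for 1491 DP and 630 iNKT peaks and on the other strand for 14 and 9. The strand was not in the table used for 307 and 144, and 1 DP peak had no entry. Overlapping genes on the same strand cannot be told apart.

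Named are the 8 peaks with the smallest FDR and the 8 with the largest log2 fold change per direction and table, the 5 with the most blocks or the highest fold enrichment, peaks that passed in genes of 14 lists (568 genes, up to 4 a list), up to 10 that passed in both tables, and those beside the threshold, of which a part is printed, and some genes are not reported here. The members and lists were chosen with earlier results of these data known. Counting and matching were tested on simulated data. Alternatives varied the FDR, fold change, blocks, enrichment, peaks per gene and matching. Calculations used matplotlib 3.10.9, SciPy 1.17.1, pandas 2.3.3 and numpy 2.4.6 under Python 3.11.15.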

Additional observations from a re-analysis of the deposited data

How the results depend on the processing

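Of 56 alternative values, 34 stayed within 1.5 times the count or within the interval of the median, and no median changed sign. The lower DP count of 47 was 22 at an FDR of 0.01 and 5 at a fold change of at least 2. It was 28 with 1 peak per gene and 9 of 154 with the midpoint inside an own block. With a fold enrichment of at least 4 it was 4 of 670, beside 4 higher. Lower calls then no longer outnumbered higher ones, while their share of 0.597% stayed above the 0.155% of other DP peaks. The higher DP count of 5 was 1 at an FDR of 0.01, 2 at a fold change of at least 2, 3 with 3 or more blocks, 3 with every block at least 20 nt and 3 with the midpoint inside. The DP median of -0.12 was -0.02 with a fold enrichment of at least 4 and -0.07 with the midpoint inside. The lower iNKT count of 316 was 120 of 187 with 3 or more blocks, 209 of 499 with a fold enrichment of at least 4 and 30 of 57 with the midpoint inside. The higher iNKT count of 81 was 15, 42 and 3 under these settings. The iNKT median of -1.72 was -2.73 with 3 or more blocks and -2.14 with the midpoint inside. With any peak as a partner, 452 DP peaks and 419 iNKT peaks were matched, against 257 and 265. Smaller counts follow in part from fewer peaks being kept; other causes were not tested. Leaving out 14 DP and 9 iNKT peaks on the strand opposite to their gene, chosen after seeing the data, gave 47 and 315 lower peaks. No paired analysis was possible because the tables hold no values per replicate, and for the same reason no replicate could be left out. The direction of the fold changes is likely and not stated, and turning it would exchange lower and higher throughout. Depth limits cannot be given without counts.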
